A study of Bos taurus with 8 samples.

Results

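The genes described here encode fibroblast growth factors (FGF) and their receptors. They are the ligands FGF1, FGF2, FGF7, FGF9, FGF10 and FGF18 and the receptors FGFR1, FGFR2, FGFR3 and FGFR4, each taken by its symbol in the probe annotation of the array. All 10 were found, among 18087 gene symbols with a transcript cluster of their own. A transcript cluster is the set of probes that the array reports as 1 gene, and 8 of the genes had 1 such cluster and 2 had 2 (FGF9 and FGF10). For these the brighter cluster over all arrays was used. The samples were small luteal cells (SLC, n = 4) and large luteal cells (LLC, n = 4) from mature, mid-cycle corpora lutea (CL) of lactating Holstein cows, with 1 Affymetrix Bovine Gene 1.0 ST array for each sample. All cows had been synchronised with cloprostenol, and both cell types were sorted by FACS from Hoechst-stained, Percoll-enriched luteal cells. The sample titles call them biological replicates. Whether each replicate was a separate cow, and whether SLC and LLC samples shared a CL, is not given in the sources used here. The tests treat the samples as independent and measure the spread between these samples.

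Most FGF are secreted proteins that bind receptor tyrosine kinases on the cell surface together with heparan sulfate chains. The activated receptor signals through docking proteins to the RAS and MAP kinase cascade, and this in turn induces inhibitors such as the sprouty proteins. In the CL the family is known for its part in the growth of blood vessels, for which FGF2 is a classical mitogen. FGF7 and FGF10 act mainly on one splice form of FGFR2, while FGF9 and FGF18 favour FGFR3 and other splice forms. The values given here are for whole transcript clusters and do not separate splice forms.

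FGFR1 and FGF7 were higher in SLC, and FGF9 was higher in LLC in 1 of its 2 clusters. FGFR1 was 2.57-fold and FGF7 2.28-fold higher in SLC. The brighter cluster of FGF9 lay below the background limit on all SLC arrays, so that no exact fold can be given for it. For the other 7 genes no difference passed the threshold, an adjusted p under 0.05 in limma with Benjamini-Hochberg adjustment over 24415 clusters. Genes that passed it are named called here. Of the 10 genes, 1 was called with the higher signal in LLC (10%) and 2 with the higher signal in SLC (20%). The same call was made for 9.64% of all clusters in favour of LLC and for 10.2% in favour of SLC. With the filter of the study, which also asks for a fold difference above 2, the counts were 0 in LLC and 2 in SLC (FGFR1 and FGF7), where 2.39% and 3.07% of all clusters passed. The 4 arrays of LLC all lay above the 4 of SLC for 1 gene (FGF9) and all below them for 2 (FGFR1 and FGF7), against 11.2% and 11.3% of all clusters. The median difference, LLC minus SLC, was -0.06 over the 10 genes and 0.02 over all clusters, on the log2 scale. With so few genes, these shares do not set the family apart from the rest of the array.

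**Figure D1:**
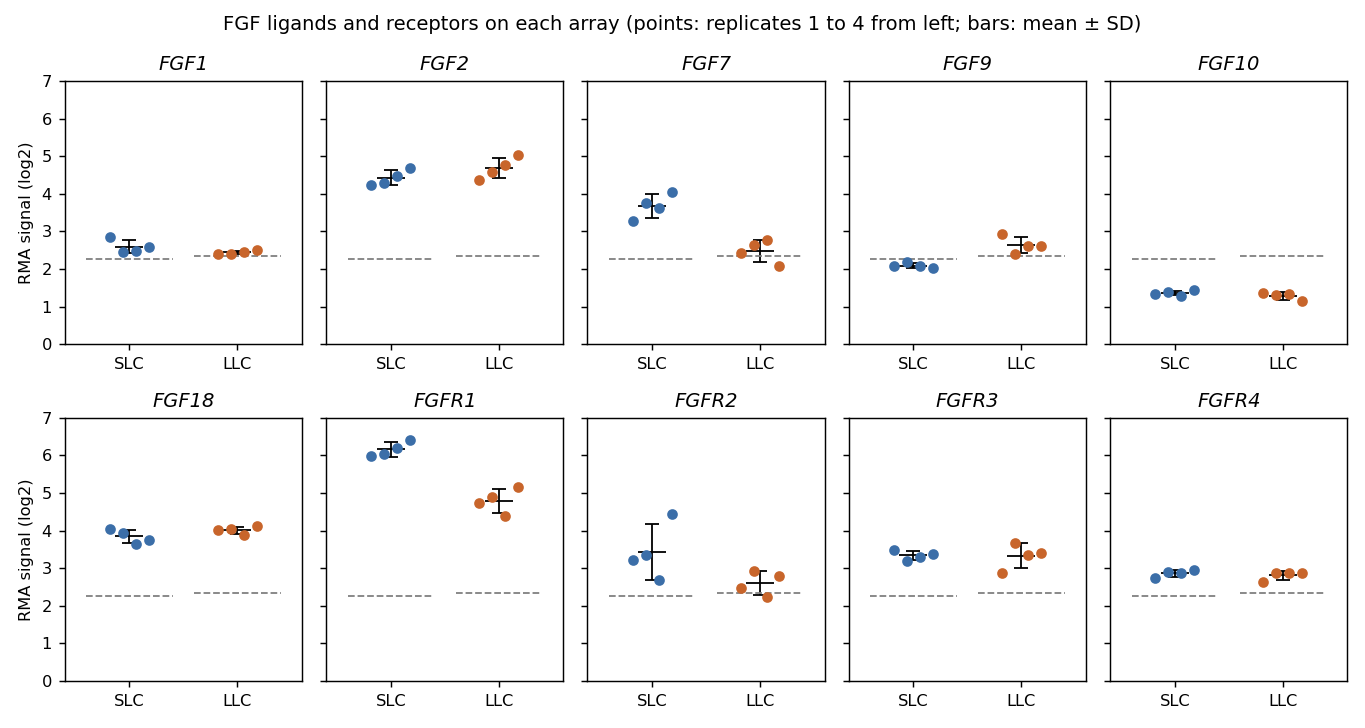
RMA signal (log2) of the 10 genes on each SLC (blue) and LLC (orange) array, with the mean and SD (n = 4) in black and the background limit of each cell type as a dashed line (2.26 in SLC, 2.34 in LLC). The groups are apart for FGFR1, FGF7 and FGF9 and overlap for the other 7 genes, and FGF10 lies below the limit on every array.

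All signals are log2 values made with RMA. As a guide to background, the 95th percentile of 718 olfactory receptor clusters was 2.26 in SLC and 2.34 in LLC. Signals of different genes come from different probes, so levels are compared between cell types and not between genes. Marker lists went with the cell type labels in part. Of 12 markers of granulosa cells, from which LLC largely derive, 6 passed the threshold in favour of LLC and 2 in favour of SLC. One of the 6, FSHR, had a mean below the background limit in both cell types. Of 9 theca markers, 2 passed the threshold in favour of SLC (22.2%) and 0 in favour of LLC. Over all clusters 10.2% were called for SLC and 9.64% for LLC. With dim clusters left out, the shares were 17.7% and 15.8%. With so few markers, 2 of 9 does not set the theca list apart from these shares. Many markers of other cells had a higher signal in SLC, at 11 of 14 for fibroblasts, 8 of 15 for endothelial cells (from 3 to 9 with 1 array left out, 3 without SLC replicate 2 or 4 and 5 without SLC replicate 1), 5 of 12 for pericytes and smooth muscle and 12 of 13 for macrophages. Of 11 lymphocyte markers, 1 was called for SLC (9.09%) and 0 for LLC, and 8 lay below background in both cell types. LLC replicate 4 had the lowest mean of the granulosa markers among the LLC arrays (4.94, against up to 5.40) and correlated best with SLC. Among the LLC arrays it had the highest mean of the theca markers (5.41). Its mean of the macrophage markers was the lowest (2.96, against up to 3.53) and thus furthest from SLC. The calls of FGFR1, FGF7 and FGF9 held without LLC replicate 4. In bulk samples such as these, fewer cells of a type and less RNA per cell cannot be told apart.

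FGF7, also called keratinocyte growth factor, is made by stromal cells and, in the bovine follicle, by theca cells. Its signal was 3.27, 3.75, 3.61 and 4.05 in SLC replicates 1 to 4. In LLC replicates 1 to 4 it was 2.43, 2.64, 2.77 and 2.09. Every SLC array lay above every LLC array, and the gap between the lowest SLC and the highest LLC array was 0.50. The means were 3.67 ± 0.32 (SD, n = 4) in SLC and 2.48 ± 0.30 in LLC, a difference of -1.19 on the log2 scale (SE 0.19, 95% interval -1.61 to -0.76, limma adjusted p = 0.00222). In LLC the signal was little above background, with replicate 4 below the limit, so the fold may be understated. With signals held at the limit the difference was -1.12.

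FGF10 is the ligand closest to FGF7 in receptor use. It lay below the background limit on all 8 arrays in both of its clusters. The brighter cluster ranged from 1.29 to 1.43 in SLC and from 1.14 to 1.35 in LLC, and the other from 0.80 to 1.08 and from 0.98 to 1.05. No fold is given for it, as both cell types were below background.

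FGF9, a ligand of FGFR3 and of some forms of FGFR2, gave 2 different results. In the brighter cluster, with a mean of 2.36 over all arrays, the signal was 2.07, 2.19, 2.08 and 2.02 in SLC replicates 1 to 4. In LLC it was 2.93, 2.40, 2.61 and 2.60. The SLC arrays all lay below the background limit and the LLC arrays all above it. The difference was 0.55 (SE 0.12, limma adjusted p = 0.0114), and 0.38 (adjusted p = 0.0342) with signals held at the limit of each cell type. With the higher of the 2 limits for both cell types it was 0.29 (adjusted p = 0.0791). In the other cluster, with a mean of 2.30, the signal was 2.32, 2.06, 2.31 and 2.23 in SLC and 2.39, 2.38, 2.30 and 2.44 in LLC. SLC replicates 1 and 3 lay above the background limit of SLC in this cluster, and LLC replicate 3 lay below that of LLC. LLC replicate 3 also lay below SLC replicates 1 and 3 here, and the difference was 0.15 (95% interval -0.07 to 0.36, adjusted p = 0.362). Both clusters were thus higher in LLC on average, but the call rested on which of them was taken.

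FGF2, or basic FGF, is a mitogen of endothelial and many other cells. Its signal was 4.24, 4.30, 4.47 and 4.69 in SLC replicates 1 to 4 and 4.38, 4.59, 4.76 and 5.02 in LLC replicates 1 to 4. The ranges overlapped widely, although all arrays were well above background. The means were 4.43 ± 0.20 (SD, n = 4) and 4.69 ± 0.27, a difference of 0.26 with a 95% interval from -0.08 to 0.61 (limma adjusted p = 0.302). A fold of 2 in either direction lies outside this interval. In each cell type the arrays ranked in the order of their replicate numbers, which in these labels name the samples.

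FGF1, or acidic FGF, which binds all 4 receptors, was between 2.45 and 2.86 in SLC and between 2.40 and 2.51 in LLC. The highest value was that of SLC replicate 1, and the others differed by little. The difference was -0.16 (95% interval -0.41 to 0.09, limma adjusted p = 0.399), close to the background limit in both cell types. FGF18, a ligand known from cartilage and also described in the bovine follicle, was at 4.03, 3.94, 3.64 and 3.76 in SLC replicates 1 to 4 and 4.01, 4.03, 3.87 and 4.11 in LLC. It was clearly above background on every array with overlapping ranges, and its difference was 0.16 (95% interval -0.09 to 0.42, adjusted p = 0.395).

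FGFR1 had the largest difference of the 10 genes. It encodes a receptor of FGF1 and FGF2, widespread in mesenchymal cells. Its signal was 5.98, 6.03, 6.20 and 6.42 in SLC replicates 1 to 4. In LLC replicates 1 to 4 it was 4.74, 4.90, 4.39 and 5.15. The lowest SLC array lay 0.83 above the highest LLC array, more than the whole range within either cell type (0.44 in SLC and 0.76 in LLC). The means were 6.16 ± 0.20 (SD, n = 4) in SLC and 4.80 ± 0.32 in LLC, a difference of -1.36 (SE 0.17, 95% interval -1.74 to -0.99, limma adjusted p = 0.000674). Both cell types were far above background.

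Fibroblast markers were mostly higher in SLC, as were FGFR1 and FGF7, but so were many macrophage, endothelial and pericyte markers. The median difference was -2.03 for the macrophage, -1.13 for the endothelial and -0.97 for the pericyte and smooth muscle markers. The mean of 14 fibroblast markers ranged from 7.41 to 8.03 in SLC and from 5.71 to 6.78 in LLC, with no marker below background in both cell types. Of these markers 11 favoured SLC and 1 favoured LLC, with a median difference of -1.96. FGFR1 and the fibroblast markers ranked the SLC arrays alike, and both were lowest in LLC replicate 3, as were the endothelial and pericyte markers. In LLC, FGFR1 was highest in replicate 4 (5.15) and the fibroblast markers in replicate 2 (6.78). FGF7 was highest in SLC replicate 4, as were the markers, but in LLC it was highest in replicate 3, where the markers were lowest. The part of fibroblasts in these differences was not tested. The theca-lineage markers, with a mean from 5.56 to 5.75 in SLC and from 4.77 to 5.41 in LLC and a median difference of -0.54, differed less. TCF21 stands in both marker lists.

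**Figure D2:**
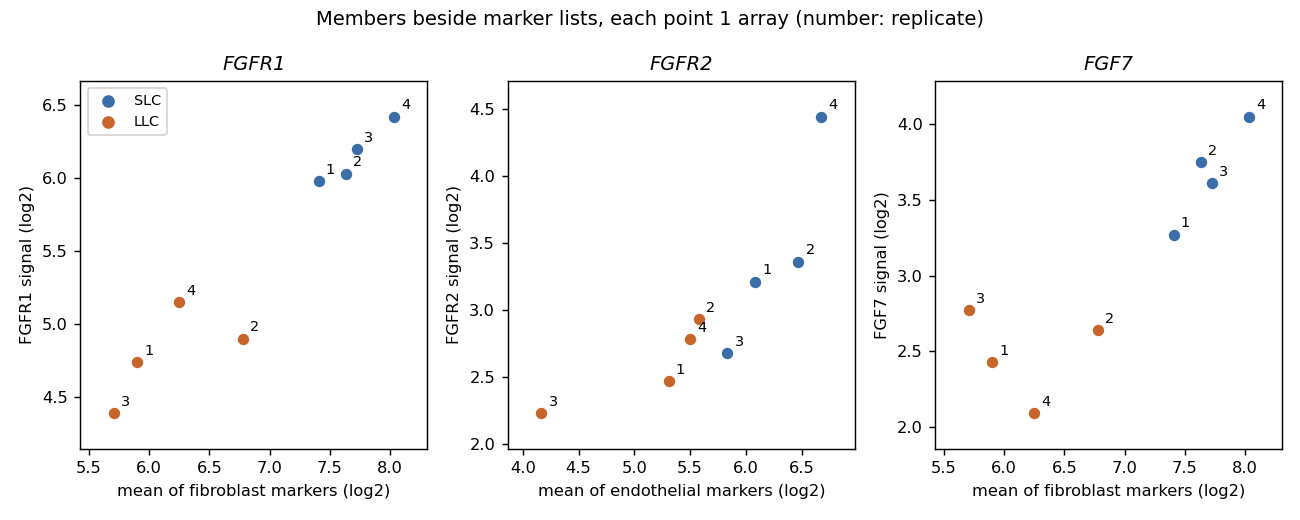
Signal (log2) of FGFR1, FGFR2 and FGF7 on each array against the mean signal (log2) of 14 fibroblast or 15 endothelial markers, in SLC (blue) and LLC (orange), with the replicate number beside each point. FGFR1 and FGF7 fall into 2 separate groups by cell type, while FGFR2 overlaps. FGFR2 follows the order of the endothelial markers within each cell type, which in LLC is also the order of the fibroblast markers. The pairing of genes with lists was not planned beforehand.

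FGFR2, the receptor that in one splice form binds FGF7 and FGF10, varied more between the SLC arrays than any other of the 10 genes. Its signal was 3.21, 3.36, 2.68 and 4.44 in SLC replicates 1 to 4 and 2.47, 2.93, 2.23 and 2.78 in LLC. SLC replicate 4 stood highest, and SLC replicate 3 lay within the range of LLC. LLC replicate 3 lay below the background limit, and with signals held at the limit the difference was -0.79. The means were 3.42 ± 0.74 (SD, n = 4) and 2.60 ± 0.31, a difference of -0.82 (SE 0.32, 95% interval -1.54 to -0.10), with an unadjusted p of 0.0295 and a limma adjusted p of 0.111 over all clusters. Without SLC replicate 3 the difference was -1.07 (adjusted p = 0.0410). Without SLC replicate 4 it was -0.48 (adjusted p = 0.186). With any one of the other 6 arrays left out, the adjusted p stayed above 0.05 too, up to 0.239. Within each cell type the arrays ranked for FGFR2 as they did for the mean of 15 endothelial markers, which ranged from 5.83 to 6.68 in SLC and from 4.17 to 5.58 in LLC. The means of the fibroblast markers and of the pericyte and smooth muscle markers ranked the LLC arrays in this order too, but not the SLC arrays. Setting FGFR2 beside this list was not planned beforehand, and orders of so few arrays can match by chance. The part of endothelial cells in the values of FGFR2 was not tested.

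FGFR3, a receptor of FGF9 and FGF18, was at 3.49, 3.20, 3.29 and 3.37 in SLC replicates 1 to 4. In LLC it was 2.87, 3.66, 3.36 and 3.41, so that LLC held both the lowest and the highest array. The difference was -0.01 (95% interval -0.37 to 0.34, limma adjusted p = 0.975). FGFR4 was between 2.73 and 2.94 in SLC and between 2.64 and 2.88 in LLC, not far above background, with a difference of -0.05 (95% interval -0.27 to 0.18, adjusted p = 0.815). For both receptors a fold of 2 in signal lies outside the interval. FGFR4 was near background, where a fold may be understated.

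**Figure D3:**
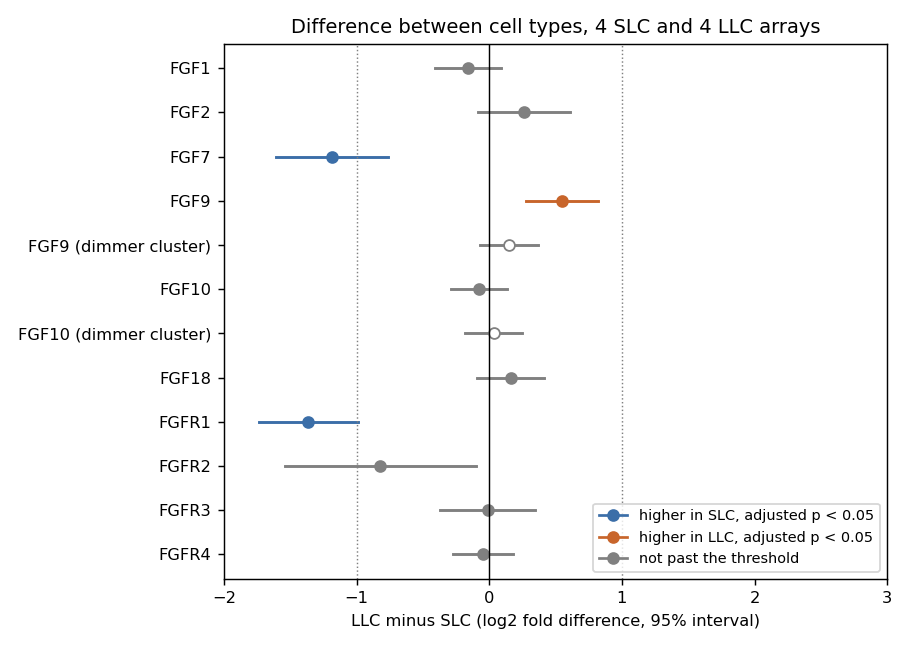
Log2 fold difference, LLC minus SLC, with its 95% interval from limma, for the 12 clusters of the 10 genes (open circles are the dimmer clusters of FGF9 and FGF10, dotted lines a fold of 2). FGFR1 and FGF7 (blue) lie to the left, FGF9 (orange) to the right, and all other intervals except that of FGFR2 include 0.

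The patterns most like those of FGFR1 and FGF9 over the 8 arrays were looked up among all symbols. For FGFR1 they were ACTN1 (Pearson's r = 0.993), CAVIN1 (0.992), EHD2 (0.992), LOC777594 (0.991) and KDM5B (0.991). ACTN1 encodes an actin-binding protein, and CAVIN1 and EHD2 encode proteins of caveolae. For FGF9 they were MC3R (0.990), TMEM14C (0.984), PWWP2A (0.980), SYNJ2BP (0.977) and CSPG5 (0.977). An r above 0.95 was reached by 303 genes for FGFR1 and by 60 for FGF9. The 8 arrays fall into 2 cell types, and a gene that differs between them the same way has a high r, so these values are a description only.

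Genes that act with the FGF were described through 7 lists, of which 108 of 115 genes had a cluster of their own. The test called 10 of them for LLC (9.26%) and 29 for SLC (26.9%), with a median difference of -0.16. Over all clusters the shares were 9.64% and 10.2%, and over the brighter clusters, with those under the 40th percentile left out, 15.8% and 17.7%. Only FGF12 passed the threshold among 16 further FGF genes. It encodes an FGF that is not secreted and binds sodium channels, and its signal was 5.33, 5.01, 4.71 and 5.54 in SLC and 6.26, 6.08, 6.36 and 5.61 in LLC (difference 0.93, SE 0.21, limma adjusted p = 0.0117). The 4 LLC arrays lay above the 4 SLC arrays, with LLC replicate 4 only just so. Another 8 of the 16 lay below background in both cell types, among them FGF5, FGF16 and FGF20. The klotho genes KL and KLB, co-receptors of the endocrine FGF, were below background too.

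Of 7 co-receptors and binding proteins, 1 was called for each cell type (14.3%). Over all clusters the shares were 9.64% for LLC and 10.2% for SLC. NCAM1, an adhesion molecule that binds FGFR1, was at 8.18, 7.96, 8.56 and 8.56 in SLC and 5.01, 6.08, 5.36 and 6.09 in LLC. This is 6.41-fold higher in SLC (difference -2.68, SE 0.25, limma adjusted p = 0.000189), with no overlap. CDH2, or N-cadherin, which also interacts with FGFR1, went the other way. Its signal was 3.82, 4.82, 6.54 and 4.67 in SLC and 7.97, 7.77, 7.49 and 6.14 in LLC (difference 2.38, SE 0.55, adjusted p = 0.0138), so that SLC replicate 3 lay above LLC replicate 4. FGFRL1, a receptor without a kinase domain, did not pass the threshold, at -0.07 (adjusted p = 0.688).

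Heparan sulfate is a cofactor for the binding of most FGF to their receptors. Of 15 genes of core proteins that can carry it, the test called 7 for SLC (46.7%) and 1 for LLC (6.67%). Over all clusters the shares were 10.2% and 9.64%. The median difference of these genes was -0.71. CD44 (-1.66, SE 0.22), SDC1, the syndecan-1 gene (-1.14, SE 0.19), and HSPG2, the gene of perlecan (-1.18, SE 0.19), were higher in SLC. GPC4, a glypican gene, was higher in LLC by 1.36 (SE 0.21), while the glypican gene GPC3 was higher in SLC by 3.35-fold. Of 19 genes of enzymes that make or modify the chains, 5 were called for SLC (26.3%) and 1 for LLC (5.26%). Their median was -0.11. HS6ST2, which adds 6-O-sulfate groups, had a signal of 4.12, 3.70, 3.79 and 3.80 in SLC and 6.42, 6.51, 6.48 and 5.58 in LLC, a 5.26-fold difference (limma adjusted p = 0.000117). SULF2, which removes 6-O-sulfate groups, was 2.89-fold higher in SLC (adjusted p = 0.0125), with 6.37, 6.37, 5.80 and 7.11 in SLC and 4.57, 5.70, 4.12 and 5.13 in LLC. EXT1 (-0.79) and EXT2 (-0.54), whose proteins build the chains, were higher in SLC, and they and SULF2 kept their call with any one array left out. The number of calls in SLC fell from 5 to 3 without SLC replicate 2 or 4 or LLC replicate 1 or 3.

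**Figure D4:**
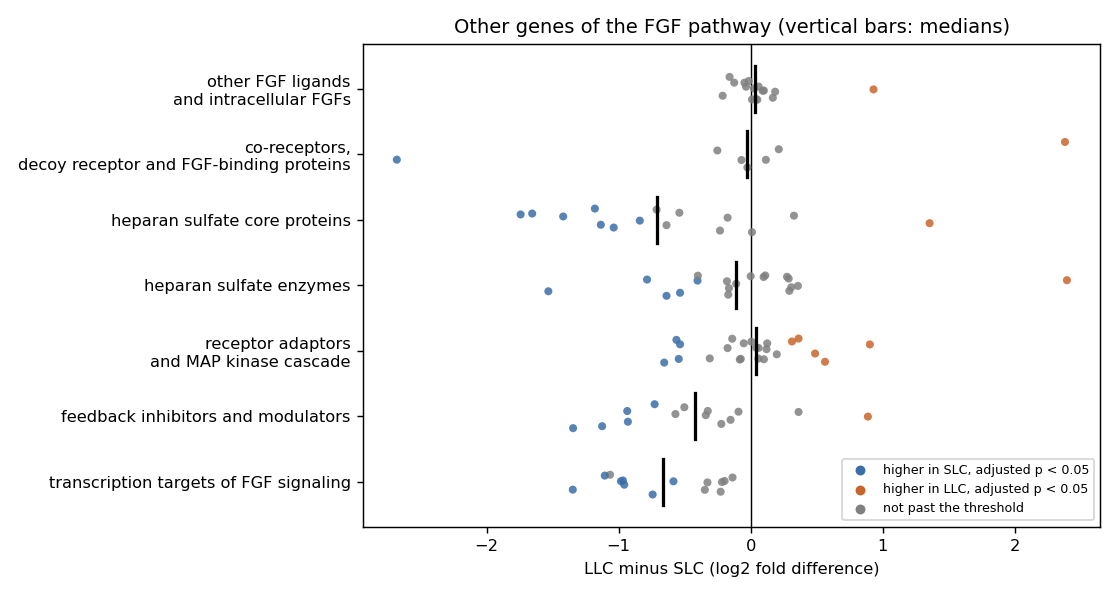
Log2 fold difference, LLC minus SLC, of each gene in 7 lists of the FGF pathway, with the list median as a black bar and colour for the call at an adjusted p under 0.05 (blue higher in SLC, orange higher in LLC, grey neither). The medians of the core proteins (-0.71), feedback inhibitors and modulators (-0.42) and transcription targets (-0.66) lie on the SLC side. Those of the other 4 lists lie near 0.

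Among 23 genes of receptor adaptors and the MAP kinase cascade, 5 were called for LLC (21.7%) and 4 for SLC (17.4%). The median was 0.04. These shares lie near those of the brighter clusters (15.8% and 17.7%), and no gene of this list lay below background in both cell types. FRS2, the main docking protein of FGF receptors, was higher in LLC by 0.49 (SE 0.11), with 6.94, 6.85, 6.79 and 6.94 in SLC and 7.41, 7.56, 7.32 and 7.18 in LLC. SOS2, an activator of RAS (0.90), and PIK3R1, a subunit of PI3 kinase (0.56), were also higher in LLC. MAPK3, which encodes ERK1 (-0.66), and the adaptor gene SHC1 (-0.56) were higher in SLC. The differences of BRAF and STAT3 in LLC and of GAB1 and AKT1 in SLC passed the threshold with all arrays, but each lost it without any one of at least 5 of the 8 arrays. Of the 9 calls, 5 remained with every array left out in turn. The calls fell to 3 for LLC without SLC replicate 1, 3 or 4 or LLC replicate 1 or 3, and to 2 for SLC without SLC replicate 2, 3 or 4 or LLC replicate 2.

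Feedback inhibitors are induced by the pathway and dampen it. Over all clusters 10.2% were called for SLC and 9.64% for LLC. Of 14 inhibitors and modulators, 5 were called for SLC (35.7%) and 1 for LLC (7.14%), with a median of -0.42. Of 14 transcription targets, 7 were called for SLC (50%) and 0 for LLC, with a median of -0.66. Whether FGF signals set the levels of these genes was not tested. The sprouty gene SPRY1 was at 7.39, 7.34, 7.50 and 7.36 in SLC and 6.35, 6.46, 5.39 and 6.89 in LLC (difference -1.13, SE 0.26, limma adjusted p = 0.0137). SPRY2 (-0.93) and SPRED1 (-0.73) were higher in SLC and SPRY3 (0.89) higher in LLC. DUSP6, a phosphatase of ERK, was at 6.69, 7.23, 6.77 and 7.30 in SLC and 5.28, 6.14, 4.81 and 6.38 in LLC (difference -1.35, SE 0.32, adjusted p = 0.0154). In both genes the groups did not overlap, and LLC replicate 3 was lowest and LLC replicate 4 highest within LLC. The remaining call in SLC was DUSP5 (-0.94), which lost it without SLC replicate 1, 2 or 4. Without LLC replicate 4, 8 of the 14 inhibitors and modulators were called for SLC.

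The targets named by their moderated t were SPSB1 (-1.35, SE 0.21), IER3 (-0.98), IER2 (-0.74) and ETV4. SPSB1 was at 9.29, 8.84, 9.16 and 8.82 in SLC and 7.39, 7.47, 7.51 and 8.35 in LLC. ETV4 and ETV5 encode ETS factors that FGF signals induce, and both were called for SLC. The signal of ETV4 was between 2.31 and 2.42 in SLC, little above the background limit. In LLC it was at most 2.02, below the limit on every array. The call of ETV4 thus rests on signals near or below background, and no value with signals held at the limit is given for it. ETV5 was at 3.19, 3.21, 3.00 and 3.30 in SLC and 1.57, 2.36, 2.09 and 2.81 in LLC. The LLC means of ETV4 and ETV5 lay below the background limit, so no size is given for their differences. IER2 and IER3 are immediate early response genes. EGR1 (-0.35, adjusted p = 0.0764) and FOS (-0.33, adjusted p = 0.162), further genes of this kind, did not pass the threshold. Macrophage markers, with a mean from 4.90 to 5.29 in SLC and from 2.96 to 3.53 in LLC, and the fibroblast and endothelial markers had a higher mean in SLC too, and their part in these lists was not tested.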

How the data were processed

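RNA of 4 SLC and 4 LLC samples was measured, 1 array each. The authors ran RMA on the CEL files and deposited log2 signals (RMA version not given in the sources used here; software Transcriptome Analysis Console 4.0), which were used unchanged. RMA equalises the distributions of the arrays, so a shift of all genes in one cell type would not be seen. After it the array medians ranged from 3.13 to 3.24. The genome build is not given in the sources used here, and the number of arrays limits the precision.

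Genes were named from clusters with exactly 1 symbol in the platform annotation (18550 of 24415), and all 10 members matched RefSeq by gene number. LLC was compared with SLC over all clusters in R 4.3.3 by limma 3.58.1 (lmFit, then eBayes), without a replicate block, with Benjamini-Hochberg adjustment over 24415 clusters. The script was tested on simulated data. The members and the lists (7 of the pathway, 7 of cell types) were chosen with earlier results of these data known. Named genes were all members, up to 4 called genes of each pathway list by the size of the moderated t, and the 5 genes most like FGFR1 and FGF9. FRS2, BRAF, STAT3, GAB1, AKT1, DUSP5, DUSP6, GPC3, ETV5, EGR1, FOS, FGFRL1, FGF5, FGF16, FGF20, KL and KLB fall outside this rule and were picked with their values already known. Alternatives were other normalizations, a filter on dim clusters, a replicate block, leaving out arrays, another variance model, array weights, an exact permutation test, other clusters of a symbol and a background limit.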

Additional observations from a re-analysis of the deposited data

Results flagged for a closer look

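Among 122 groups of 4 arrays (61 genes in each cell type), 5 held 1 array well apart from the rest, and about 1 in 20 would do so by chance. FGFR4 was at 2.64 in LLC replicate 1 and between 2.86 and 2.88 in the other LLC arrays. In LLC replicate 4, HS6ST2 was at 5.58 against 6.42 to 6.51, SHC1 at 6.53 against 6.09 to 6.16, and SPSB1 at 8.35 against 7.39 to 7.51, each of these 3 nearer to SLC than the other LLC arrays. KDM5B, one of the genes most like FGFR1, was at 5.89 in SLC replicate 4 and between 5.82 and 5.83 in the other SLC arrays.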

How the results depend on the processing

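Of 169 refitted differences of the 10 genes, leaving out those an alternative could not change, 165 kept their side of the threshold, 2 gained a call (FGFR2), 2 lost it (FGF9) and none of the called ones changed sign. FGFR1 ranged from -1.48 to -1.23 (highest adjusted p = 0.00318) and FGF7 from -1.32 to -1.06 (highest adjusted p = 0.00897), and the call of both held with each of the 8 arrays left out, as did that of FGF9 (0.45 to 0.62). The number of genes higher in LLC fell from 1 to 0 when clusters under the 40th percentile were left out, which removes FGF9, when signals were held at the higher background limit, and with the dimmer cluster of FGF9. Over its alternatives the adjusted p of FGF9 ranged from 0.00919 to 0.362, and that of FGFR2 from 0.0366 to 0.286. By the exact permutation test, two-sided, FGFR1, FGF7 and FGF9 each had p = 0.0286, the smallest that 4 against 4 arrays allow. Without LLC replicates 3 and 4, an alternative chosen after seeing the data like the dimmer cluster and the higher limit, the calls numbered 2 for SLC and 1 for LLC. With the replicate block, 3 genes were called for SLC, FGFR2 among them (-0.82, adjusted p = 0.0366), as were 14 of the 15 endothelial markers. The numbers do not pair the samples in the labels. Same-numbered arrays correlated at -0.13 to 0.17 in their deviations, and 1 of 4 SLC arrays was nearest to its own number. These values over all clusters cannot settle whether SLC and LLC samples shared a CL. Whether FGFR2 is called thus depends on the model chosen. Signals near background limit what can be said of FGF1, FGF9, FGF10 and FGFR4, and of FGF7 and FGFR2 in LLC.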
